A study of Mus musculus with 6 samples.

Results

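Kruppel-like factors are zinc-finger transcription factors, and 10 of them were followed here in cultured mouse Sertoli cells: Klf2, Klf3, Klf4, Klf5, Klf6, Klf7, Klf9, Klf10, Klf13 and Klf15. They were measured by every array probe whose RefSeq accession named one of these genes, which gave 15 of the 41091 probes and 10 of the 14236 genes tested. Sertoli cells line the seminiferous tubules of the testis and support germ cells as they develop. The cells were primary cells of C57BL/6J mice, kept at 34 °C in F12/DMEM, and all 3 groups received insulin (10 µg/ml), transferrin (5 µg/ml) and EGF (5 ng/ml). From day 5, they were given vehicle, bFGF (20 ng, in a volume the labels do not state) or 10 µM PD0325901 for 24 h. PD0325901 blocks MEK1 and MEK2, the kinases upstream of ERK, and bFGF is a growth factor that signals through the same kinases. EGF, present in every group, also does so. Total RNA was hybridised to 6 one-colour Agilent arrays, 2 per group, and nothing in the labels says whether the 2 came from separate animals or cultures. The p-values therefore measure the spread between these arrays, which may be technical.

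Kruppel-like factors bind GC-rich and CACCC elements through a conserved zinc-finger region at the C terminus, and the rest of each protein differs and recruits coactivators or corepressors. Several are early-response genes whose transcripts follow growth factor, serum, stress or hormone signals within a short time. In the testis, Klf4 is known as an abundant factor of Sertoli and germ cells, and it is induced by follicle-stimulating hormone in Sertoli cells.

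All levels below are log2 signals relative to the 75th percentile of the same array, so a level of 0 is that percentile, and levels of different probes are not set against each other. Differences are log2 differences between group means with their standard error (SE), from 1 limma model over the 6 arrays. A gene passed at a Benjamini-Hochberg adjusted p under 0.05 over all genes tested. The signal at the 75th percentile ran from 1464 to 1613 intensity units. Between 64.9% and 66.6% of probes were well above background on the vehicle and PD0325901 arrays, and 75.6% and 75.9% on the bFGF arrays. No slide held arrays of more than 1 group, so a slide effect and a treatment effect cannot be told apart. All 10 Sertoli markers measured, Sox9, Wt1 and Amh among them, were well above background in every group. Their summed signal ran from 328 to 366 times the 75th percentile over the 6 arrays. Linear signals were summed, so the brightest marker, Clu (7.88 in vehicle), weighed most, and the sum says little of the others.

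All 15 Klf probes were well above background on all 6 arrays, none was saturated, and all 10 genes entered the test. Klf2, Klf3, Klf6, Klf9 and Klf15 had 2 probes, of which the brighter stood for the gene, and the other 5 genes had 1. The brighter Klf2 probe was brighter than 99.1% of all probes on the arrays, the brighter Klf6 probe than 97.0% and the Klf4 probe than 96.6%. The scanner read such spots from a scan at lower gain and scaled them up: on all 6 arrays for the brighter Klf2 and Klf6 probes, as for 3.54% of all probes, and on 3 arrays for Klf4 (vehicle 2 and both PD0325901 arrays).

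Under the MEK inhibitor, Klf4, Klf9, Klf7 and Klf3 were higher than in vehicle, and Klf5 and Klf10 were lower. Klf4 was 2.49-fold higher and Klf5 2.63-fold lower, which were the largest differences in either direction among the 10. Thus 6 of 10 members passed, 4 of them higher and 2 lower. Of all genes tested, 53.4% passed in this comparison, 24.1% higher and 29.3% lower, so the members' share lay near that of the array as a whole. The median difference of the members was 0.03 and that of all genes -0.05. The median size without regard to sign was 0.27 for the members and 0.30 for all genes. The 2 PD0325901 arrays lay outside the range of the 2 vehicle arrays for 9 members, the exception being Klf15, and for 79.7% of all genes.

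**Figure D1:**
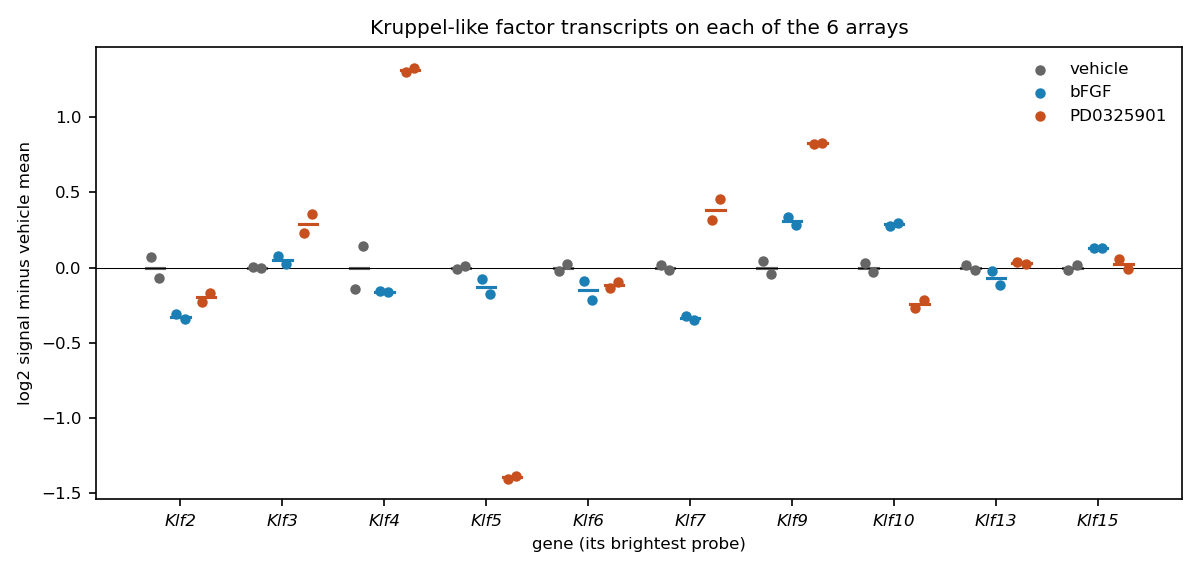
Each point is 1 array, plotted as the log2 signal of the gene's brightest probe minus the mean of the vehicle arrays, with 2 arrays per group and a bar at each group mean. The PD0325901 points of Klf4 and Klf9 stand above those of the other groups and those of Klf5 below, while Klf13 and Klf15 show all groups close to 0.

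Klf4, a factor of epithelial differentiation and cell-cycle arrest and one of the factors used to reprogram cells to pluripotency, stood at 3.46 and 3.74 in vehicle, 3.44 and 3.43 after bFGF and 4.90 and 4.93 under PD0325901. Both PD0325901 arrays were more than 1 log2 unit above every other array, and the bFGF arrays lay just under the lower vehicle array. The difference from vehicle was 1.31 ± 0.10 (SE, limma adjusted p = 9.39e-04), larger in size than that of 92.5% of all genes. It passed under every alternative that was run. The vehicle arrays of Klf4 lay further apart (SD 0.20) than those of any other member's representing probe. Of them, the higher, vehicle 2, was read from the low-gain scan, as both PD0325901 arrays were, while vehicle 1 and both bFGF arrays were not. The part of the scan in the Klf4 difference was not tested.

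Klf5, which promotes proliferation in many epithelia and often opposes Klf4, showed the opposite order. Its levels were -0.04 and -0.02 in vehicle, -0.11 and -0.20 after bFGF, and -1.43 and -1.42 under PD0325901. The inhibitor arrays were the lowest of the 6 by a wide margin, while the arrays of the other groups lay close to one another. The difference from vehicle was -1.39 ± 0.05 (limma adjusted p = 1.66e-04), larger in size than that of 93.4% of all genes, and it too passed under every alternative.

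Klf9, a target of glucocorticoid and thyroid hormone that represses through Sin3, read -0.82 and -0.91 in vehicle, -0.53 and -0.58 after bFGF, and -0.04 on both PD0325901 arrays. The 3 groups did not overlap, with bFGF between vehicle and PD0325901. The difference between PD0325901 and vehicle was 0.82 ± 0.05 (limma adjusted p = 4.98e-04), a 1.77-fold higher signal. The dimmer Klf9 probe gave -1.52 and -1.59, -1.15 and -1.28, and -0.67 and -0.76 in the same order of groups. It moved as the brighter one did: its difference was 0.84 ± 0.07 (limma over all named probes, adjusted p = 0.00119), and the gap between the probes changed by 0.02 (95% interval -0.15 to 0.18).

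Klf10, an early-response gene of TGF-beta also called TIEG, lay at 1.28 and 1.22 in vehicle, 1.53 and 1.55 after bFGF and 0.98 and 1.03 under PD0325901. The groups did not overlap, and the 2 treatments lay on opposite sides of vehicle. The fall under PD0325901 was -0.24 ± 0.05 (limma adjusted p = 0.0120), a smaller size than that of most genes, and it did not pass without PD0325901 replicate 1 (adjusted p = 0.0754).

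Klf7, which acts in neuronal growth and represses adipocyte differentiation, stood at 1.11 and 1.09 in vehicle, 0.78 and 0.75 after bFGF and 1.41 and 1.55 under PD0325901. Here, too, the treatments fell on either side of vehicle with no overlap, but in the direction opposite to Klf10. The rise under PD0325901 was 0.38 ± 0.06 (limma adjusted p = 0.00701). Klf3, a repressor that works through the corepressor CtBP, read 0.05 on both vehicle arrays, 0.13 and 0.07 after bFGF and 0.28 and 0.41 under PD0325901. Its PD0325901 arrays were the 2 highest, and the difference was 0.29 ± 0.06 (limma adjusted p = 0.0151). The dimmer Klf3 probe, at -0.89 and -1.11 in vehicle and -0.56 and -0.51 under PD0325901, gave 0.46 ± 0.09 (limma over all named probes, adjusted p = 0.0120). The Klf3 call did not hold without vehicle replicate 1 (adjusted p = 0.0508), vehicle replicate 2 (0.0521) or PD0325901 replicate 2 (0.0643).

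Klf6, Klf13 and Klf15 did not pass. Klf6, an injury-response factor and tumour suppressor, read 4.26 and 4.30 in vehicle, 4.19 and 4.07 after bFGF and 4.15 and 4.19 under PD0325901. Its treated arrays were all below both vehicle arrays, and the PD0325901 difference of -0.11 ± 0.06 had a 95% interval from -0.27 to 0.04 (limma adjusted p = 0.167). Its dimmer probe gave a like difference of -0.13 ± 0.04 (limma over all named probes, adjusted p = 0.0705).

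Klf13, which regulates the chemokine Ccl5 in lymphocytes, lay between 1.18 and 1.33 on all 6 arrays, with the PD0325901 arrays at 1.33 and 1.32 and the vehicle arrays at 1.31 and 1.28. The PD0325901 difference was 0.03 (95% interval -0.10 to 0.16). Klf15, a regulator of amino acid and glucose metabolism that glucocorticoids induce, read -2.40 and -2.36 in vehicle, -2.25 on both bFGF arrays and -2.32 and -2.39 under PD0325901. The vehicle and PD0325901 arrays overlapped, and the difference was 0.02 (95% interval -0.09 to 0.14). The dimmer Klf15 probe ranged from -4.95 to -4.24 over the 6 arrays and did not pass either.

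Klf2, known from endothelium and T cells and induced there by fluid flow through the kinase ERK5, gave answers that depended on the probe. Its brighter probe stood at 5.83 and 5.69 in vehicle, 5.45 and 5.41 after bFGF and 5.53 and 5.59 under PD0325901. Every treated array was below both vehicle arrays, and the PD0325901 difference of -0.20 ± 0.06 did not pass (limma adjusted p = 0.0557). It passed without vehicle replicate 2 (-0.27, adjusted p = 0.0244) and when genes with a dim array were left out of the test (adjusted p = 0.0397).

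The dimmer Klf2 probe, which carries the same RefSeq accession, read 2.39 and 2.42 in vehicle, 2.57 and 2.58 after bFGF and 3.38 and 3.42 under PD0325901. By this probe the PD0325901 arrays were the highest, and Klf2 rose by 0.995 ± 0.04 (limma over all named probes, adjusted p = 2.27e-04). In that test over probes, 51.3% of named probes passed. The gap between the probes changed by 1.19 ± 0.08 (95% interval 0.996 to 1.39, limma on the gap over 4713 genes with at least 2 detected probes, adjusted p = 0.00778). Such a gap change passed for 3.20% of those genes. The 2 brightest probes passed in opposite directions in 0.743%, a group to which Klf2 did not belong because its brighter probe did not pass. The mean of both probes was higher under PD0325901 by 0.40 (limma adjusted p = 0.00253).

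The authors' deposited table, centred per probe, held the same split: the dimmer Klf2 probe was at -0.20 and -0.17 in vehicle and at 0.80 and 0.82 under PD0325901, and the brighter one at 0.27 and 0.13 and at -0.02 and 0.02. The brighter probe was read from the low-gain scan on all 6 arrays and the dimmer one on none. The brighter Klf6 probe was also read so on all 6 arrays, and its 2 probes did not part: their gap changed by -0.01 (95% interval -0.18 to 0.16). The part of the low-gain scan in the Klf2 result was not tested. The gap of the other 4 genes with 2 probes changed by -0.01 to 0.22 under PD0325901, and none of these passed.

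**Figure D2:**
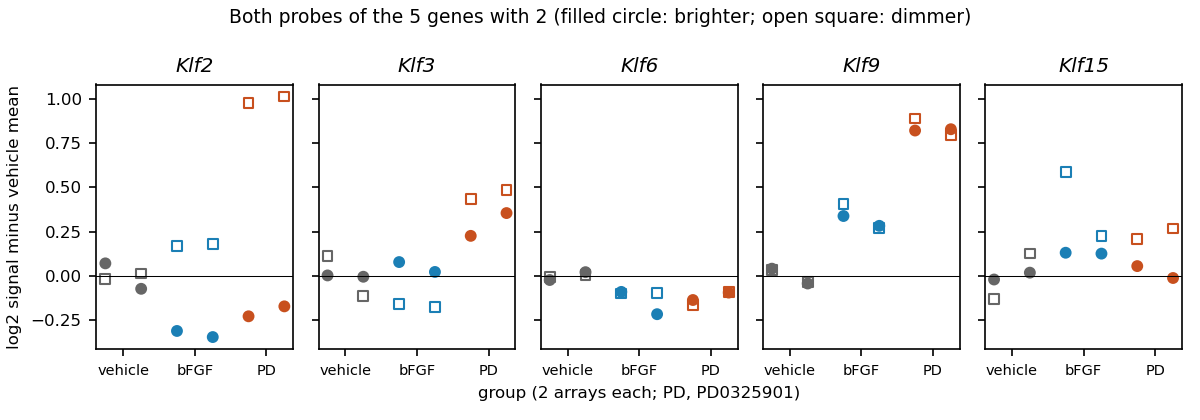
For the 5 genes with 2 probes, each symbol is 1 array, plotted as the log2 signal minus the vehicle mean of the same probe, with filled circles for the brighter and open squares for the dimmer probe. The probes of Klf9 and Klf6 move together, whereas under PD0325901 the dimmer Klf2 probe lies near 1 and the brighter one near -0.2.

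These are bulk RNA samples, in which fewer cells of a type and less RNA per cell cannot be told apart. Klf2 and Klf4 are also endothelial genes. Of 6 endothelial markers tested, 5 were lower under PD0325901 and 1 did not pass, where 29.3% of all genes were lower. Their summed signal was 1.26 to 1.29 times the 75th percentile in vehicle, 1.34 to 1.41 after bFGF and 0.50 to 0.57 under PD0325901. On neither PD0325901 array was Pecam1 well above background. In that group Klf4 and the dimmer Klf2 probe were highest, while both arrays of the brighter Klf2 probe, which stands for the gene, lay below vehicle (-0.20, not passed).

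Of 5 markers of peritubular myoid cells, 4 were higher under PD0325901, with a summed signal of 55.7 to 60.4 in vehicle, 58.9 to 65.4 after bFGF and 84.5 to 85.3 under PD0325901. Fibroblast markers were higher for 3 of 6, at 55.2 to 55.9, 54.0 to 58.5 and 66.1 to 68.2. Macrophage markers were lower for 3 of 7, at 12.02 to 13.2, 8.81 to 9.52 and 8.38 to 8.66. Germ cell markers were higher for 2 of 6 and lower for 1, at 12.9 to 14.8, 19.5 to 24.0 and 16.3 to 16.5. The 2 of 4 Leydig cell markers that passed were lower, and Sertoli markers were higher for 4 and lower for 4 of 10. Beside these counts, 24.1% of all genes were higher and 29.3% lower under PD0325901. Each sum adds linear signals, so its brightest markers weigh most, Lyz2 among the macrophage and Ldhc among the germ cell markers. Every marker tested was well above background on some arrays, and Tek, Cd68, Zbtb16 and Insl3 were not tested. The part of these cells in the Klf levels was not tested.

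After bFGF, the members moved less. Klf9 and Klf10 were higher than in vehicle and Klf2 (by its brighter probe) and Klf7 lower, so 4 of 10 passed, 2 in each direction. Among all genes, 19.9% passed, 12.6% higher and 7.28% lower. The median size without regard to sign was near that of the array, 0.156 for the members and 0.152 for all genes. Klf7 had the largest size, -0.33 ± 0.06 (limma adjusted p = 0.0297), a 1.26-fold lower signal, and Klf2 was also at -0.33 ± 0.06 (adjusted p = 0.0356). Klf9 was higher by 0.31 ± 0.05 (limma adjusted p = 0.0235), and its dimmer probe by 0.34 ± 0.07 (adjusted p = 0.0411 over all named probes). Klf10 was higher by 0.29 ± 0.05 (limma adjusted p = 0.0240). None of these 4 calls held when either bFGF array was left out, where adjusted p ran from 0.0890 to 0.155.

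The 6 members that did not pass were Klf4 (-0.16 ± 0.10), Klf5 (-0.13 ± 0.05), Klf6 (-0.15 ± 0.06), Klf13 (-0.07 ± 0.05), Klf3 (0.05 ± 0.06) and Klf15 (0.13 ± 0.04), with limma adjusted p from 0.105 to 0.554. The bFGF arrays lay outside the range of the vehicle arrays for all 10 members, as they did for 67.6% of all genes. The dimmer Klf2 probe was at 0.18 ± 0.04 after bFGF (limma over all named probes, adjusted p = 0.0514), again on the other side of 0 from the brighter one, and the change in their gap, 0.50 ± 0.08, did not pass (limma adjusted p = 0.105). Centring the arrays on their median in place of the 75th percentile shifted the median of all genes from 0.03 to -0.10, and 7 members then passed, 2 higher and 5 lower. Under that centring, Klf3 turned to -0.08 and Klf15 to -0.0012, while Klf9 and Klf10 remained on the higher side.

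Set directly against bFGF, PD0325901 gave higher Klf4, Klf7, Klf9 and Klf3 and lower Klf5 and Klf10, from the same 4 arrays that entered the other comparisons. Here 6 of 10 members passed, 4 higher and 2 lower, against 62.0% of all genes, 25.4% higher and 36.6% lower. Klf4 differed by 1.48 ± 0.10 (limma adjusted p = 5.76e-04), Klf5 by -1.27 ± 0.05 (1.68e-04), Klf7 by 0.72 ± 0.06 (9.70e-04), Klf10 by -0.53 ± 0.05 (0.00105), Klf9 by 0.51 ± 0.05 (0.00141) and Klf3 by 0.24 ± 0.06 (0.0233). Klf7 and Klf10, which stood on opposite sides of vehicle under the 2 treatments, thus differed more between the treatments than either did from vehicle. Klf3 did not pass without bFGF replicate 1, bFGF replicate 2 or PD0325901 replicate 2 (adjusted p = 0.0632, 0.105 and 0.0953). By the dimmer Klf2 probe, PD0325901 was above bFGF by 0.82 ± 0.04 (limma over all named probes, adjusted p = 2.89e-04), whereas the brighter one, at 0.13 ± 0.06, did not pass. The arrays of the 2 treatments overlapped for Klf6 alone, against 86.6% of all genes with no overlap.

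**Figure D3:**
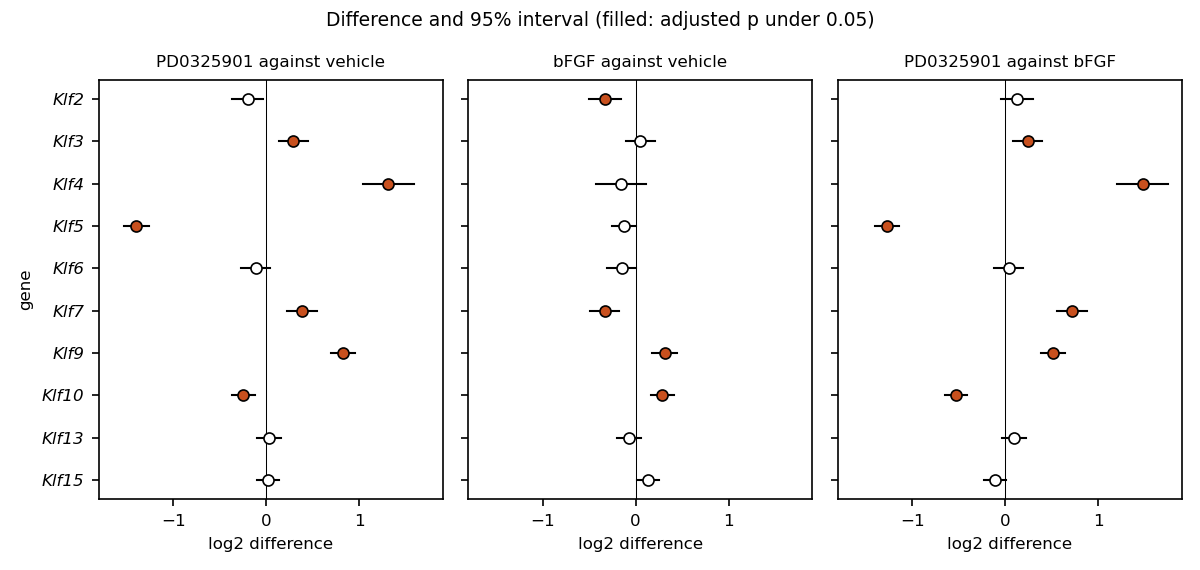
Points are log2 differences between group means from the limma model and bars their 95% intervals, for each member in the 3 comparisons, and filled points have an adjusted p under 0.05. Klf4 and Klf5 lie furthest from 0 in both panels that hold PD0325901, and in the panel of bFGF against vehicle the member furthest from 0 is at -0.33.

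Each member's groups can thus be placed in order, with neighbours that did not pass left unordered. Klf9 rose from vehicle to bFGF to PD0325901, with each step passing. Klf10 was ordered bFGF, vehicle, PD0325901 from high to low, and Klf7 PD0325901, vehicle, bFGF. For Klf4 and Klf3 PD0325901 was highest, and for Klf5 it was lowest, with vehicle and bFGF unordered. For Klf2, by its brighter probe, bFGF lay below vehicle and PD0325901 was not separated from either. For Klf6, Klf13 and Klf15 no pair passed. These orders hold for the full set of arrays only. No step between vehicle and bFGF passed when either bFGF array was left out, and the Klf10 and Klf3 differences between PD0325901 and vehicle also depended on single arrays.

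To show what lies before the start of the genes that moved most, the 250 bases upstream of the annotated start were read from RefSeq promoters of the mouse assembly GRCm38.p6, in which 8 of the 10 members were found. Klf5 and Klf10 were not among them. The 3 shown are Klf4 (chr4:55532476-55532725, minus strand) and Klf9 (chr19:23140976-23141225, plus strand), the 2 members that rose most, and Klf2 (chr8:72318812-72319061, plus strand), added after its probes were seen to part. Each runs 5′ to 3′ toward the start. Capitals mark GGGCGG, the GC box bound by Sp factors, on either strand in Klf4 and Klf2, and the MEF2 site in Klf2. In Klf9 they mark TGANTCA, which covers AP-1 sites, with CACCC, an element bound by Kruppel-like factors, which overlaps it by 2 bases. The Klf9 match, TGAATCA, has A where the AP-1 consensus has C or G.
Klf4: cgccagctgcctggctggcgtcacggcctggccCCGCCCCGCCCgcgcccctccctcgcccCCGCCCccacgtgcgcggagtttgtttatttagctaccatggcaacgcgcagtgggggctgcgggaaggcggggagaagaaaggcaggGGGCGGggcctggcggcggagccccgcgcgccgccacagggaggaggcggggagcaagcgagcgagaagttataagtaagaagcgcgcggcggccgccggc
Klf9: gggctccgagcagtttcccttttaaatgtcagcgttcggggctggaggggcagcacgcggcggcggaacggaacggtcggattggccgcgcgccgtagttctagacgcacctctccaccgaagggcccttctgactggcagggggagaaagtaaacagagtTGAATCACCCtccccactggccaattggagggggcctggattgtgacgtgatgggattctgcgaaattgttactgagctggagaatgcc
Klf2: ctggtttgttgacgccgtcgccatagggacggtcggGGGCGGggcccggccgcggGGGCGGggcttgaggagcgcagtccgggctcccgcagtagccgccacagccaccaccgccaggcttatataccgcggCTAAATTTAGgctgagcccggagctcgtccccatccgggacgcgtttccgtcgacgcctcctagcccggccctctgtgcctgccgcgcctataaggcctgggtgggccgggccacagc

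The Klf4 window held 4 GGGCGG matches and no CACCC. In the Klf9 window, TGANTCA began at position -89 from the start and CACCC at -84, and there was no GGGCGG. The Klf2 window held 2 GGGCGG matches and 1 MEF2 site at -118.

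Over both strands, GGGCGG was found in 7 of the 8 member windows and in 32.7% of the 32851 promoters of the same length, and CACCC in 6 of 8 and in 52.0%. TGANTCA, with any base at N, was found in Klf9 alone and in 6.75% of all promoters. The MEF2 site, the element through which ERK5 acts on Klf2, was in Klf2 alone and in 2.92%. Neither GGAAGT (an extended ETS site) nor TGACGTCA (the cAMP response element) was in any member window, against 19.7% and 1.55% of all promoters. The same held for the exact letters TATAAA (a form of the TATA box) and the CArG box (the serum response element), at 12.4% and 1.47%. Other forms of the TATA box were not searched, and TATAAG occurs in the Klf4 and Klf2 windows shown. The ETS core itself, GGAA, was not searched, and its letters occur in the windows shown. A match describes the letters of this window only.

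Among the other Klf genes, 6 of 7 were tested, Klf14 being the exception. Under PD0325901 4 of them passed, with a median difference of 0.32 where that of all genes was -0.05. For this and the lists below, the shares of all genes were 24.1% higher and 29.3% lower under PD0325901. After bFGF they were 12.6% and 7.28%. Klf12 was higher by 1.14 ± 0.10, Klf8 by 0.98 ± 0.09 and Klf11 by 0.54 ± 0.09 (limma adjusted p = 0.00122, 0.00147 and 0.00930). Klf17 was lower by -0.79 ± 0.19 (adjusted p = 0.0254), and Klf1 and Klf16 did not pass. The Klf17 probe was dim, at -5.29 and -4.84 in vehicle and -5.84 and -5.87 under PD0325901. The Klf17 call was lost with normexp background (adjusted p = 0.0762), with quantile normalization (0.0932) and without vehicle replicate 2 (0.0573), PD0325901 replicate 1 (0.0944) or PD0325901 replicate 2 (0.102), and that of Klf11 without PD0325901 replicate 1 (0.0536). Klf8 and Klf12 are known, like Klf3, as repressors that bind CtBP, and Klf11, like Klf9 and Klf10, binds Sin3. A second, dimmer Klf8 probe was at -0.45 ± 0.27 (limma over all named probes, adjusted p = 0.223), on the other side of 0 from the first. Its signal was low, at -5.22 and -5.28 in vehicle and -5.72 and -5.69 under PD0325901. The mean of both Klf8 probes, 0.27, did not pass (limma adjusted p = 0.182). After bFGF none of the 6 passed the limma test, 2 of them being under 0.05 before adjustment, and Klf8 came nearest at 0.35 (adjusted p = 0.0586).

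**Figure D4:**
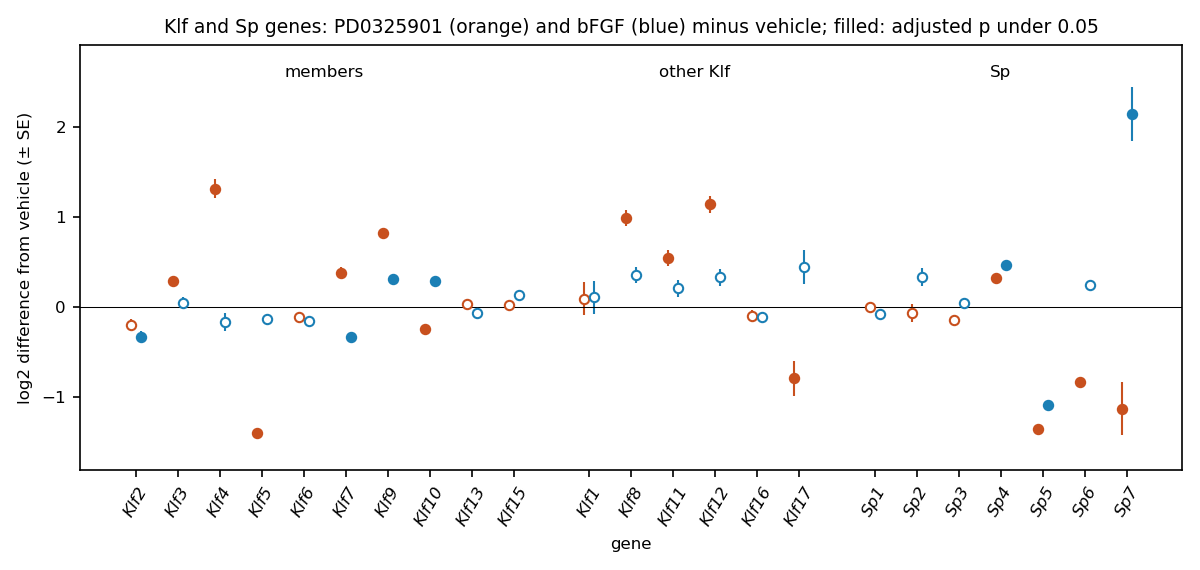
Log2 differences from vehicle (± SE) for the 10 members, the 6 other Klf genes and the 7 Sp genes tested, with PD0325901 in orange and bFGF in blue and filled points for an adjusted p under 0.05. Klf4, Klf12, Klf8 and Klf9 stand highest under PD0325901, Klf5 and Sp5 lowest, and Sp7 is the highest point after bFGF.

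The Sp factors, the nearest relatives of the Klf family, bind the same GC boxes. Of the 7 tested, with a median of -0.15, 1 was higher and 3 were lower under PD0325901: Sp4 by 0.33 ± 0.05, Sp5 by -1.35 ± 0.05, Sp7 by -1.13 ± 0.30 and Sp6 by -0.83 ± 0.06 (limma adjusted p from 1.66e-04 to 0.0327). For Sp7, only 1 of the 2 PD0325901 arrays was well above background. Sp1, Sp2 and Sp3 did not pass. The Sp4 call was lost with the mean over its probes (adjusted p = 0.0818) and, narrowly, without PD0325901 replicate 1 (0.0501) or PD0325901 replicate 2 (0.0524). That of Sp7 was lost with quantile normalization, with only the groups compared and without any 1 of the vehicle or bFGF arrays (adjusted p from 0.0658 to 0.109). After bFGF, Sp7 was higher by 2.14 ± 0.30 and Sp4 by 0.47 ± 0.05, and Sp5 was lower by -1.08 ± 0.05 (limma adjusted p from 0.00659 to 0.0189). Without bFGF replicate 2 none of these 3 passed (adjusted p from 0.0535 to 0.0942), without bFGF replicate 1 Sp4 (0.0664) and Sp7 (0.0842) did not, and without vehicle replicate 1 or 2 Sp7 did not (0.0581 and 0.0595).

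Among 8 corepressors and coactivators of the family, 2 were higher and 3 lower under PD0325901 (median -0.10). Ctbp2, a corepressor of Klf3, was lower by -0.67 ± 0.05, the acetyltransferase Kat2b was higher by 0.61 ± 0.05 and the deacetylase Hdac3 was lower by -0.45 ± 0.05 (limma adjusted p from 7.07e-04 to 0.00325). Thus Ctbp2 and Klf3 passed in opposite directions. Of the 5 genes tested that set the stability of Klf proteins through ubiquitin, 2 were higher and 2 lower (median -0.00049), with Smurf1 at -0.53 ± 0.05, Wwp1, a ligase for Klf2 and Klf5, at 0.46 ± 0.06, and the deubiquitinase Usp10 at -0.41 ± 0.06 (limma adjusted p from 0.00155 to 0.00613). For Wwp1, 2 of its 3 probes shared that sign, and their mean, 0.21, did not pass (adjusted p = 0.176). Over the alternatives the counts ran from 1 to 3 higher and 2 to 4 lower for the corepressors and coactivators. Sin3a was lost without either PD0325901 array. Hdac2 was lost with quantile normalization (limma adjusted p = 0.0513), with median centring (0.185) and with only the groups compared (0.0719). It was also lost without PD0325901 replicate 1, PD0325901 replicate 2, vehicle replicate 2 or either bFGF array. In the ubiquitin list, Fbxw7 was lost whichever array was left out. Protein levels were not measured.

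The MEK5-ERK5-MEF2 route is a kinase pathway parallel to the one inhibited and controls Klf2 and Klf4 in endothelium. Of its 8 genes, 2 were higher and 1 lower under PD0325901 (median 0.0035): Map3k3 was at -0.63 ± 0.04, Mef2a at 0.49 ± 0.09 and Mef2c at 0.31 ± 0.06 (limma adjusted p from 7.57e-04 to 0.0121). The Mef2a call was lost without PD0325901 replicate 2 (adjusted p = 0.0595), and that of Mef2c without PD0325901 replicate 1 (0.0570) or PD0325901 replicate 2 (0.0706). The transcripts of ERK5 itself (Mapk7, -0.00091 ± 0.05) and MEK5 (Map2k5, 0.0079 ± 0.09) did not pass.

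Klf10 is itself an early-response gene of TGF-beta. Of 5 other such genes, 3 were lower under PD0325901 and none higher, with a median of -0.31, where 29.3% of all genes were lower and the median was -0.05. They were the inhibitory Smads Smad6 and Smad7, at -1.14 ± 0.06 and -0.97 ± 0.05, and Skil, a repressor of Smad signalling, at -0.31 ± 0.08 (limma adjusted p from 4.06e-04 to 0.0299). The Skil call was lost with median centring (adjusted p = 0.0940), with only the groups compared (0.0628) and without either PD0325901 array (0.121 and 0.108) or either bFGF array (0.0628). After bFGF, where Klf10 was higher, none of the 5 passed the limma test, and 1 of them was under 0.05 before adjustment. Glucocorticoid-induced genes, the class to which Klf9 and Klf15 belong, were split under PD0325901, with 2 higher and 2 lower of 6 (median -0.0019). Fkbp5 was lower by -1.37 ± 0.05 and Sgk1 by -0.85 ± 0.05, while Tsc22d3 was higher by 0.55 ± 0.06 (limma adjusted p from 1.83e-04 to 0.00234). Of the 2 members in this class, Klf9 was higher (0.82 ± 0.05) and Klf15, at 0.02 ± 0.04, did not pass.

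Of 13 textbook targets of Klf proteins, 4 were higher and 6 lower under PD0325901 (median 0.05). Cyclin D1 (Ccnd1), which Klf4 is known to repress and Klf5 to activate, was lower by -1.66 ± 0.05 (limma adjusted p = 1.27e-04). After bFGF, where neither Klf4 nor Klf5 passed, Ccnd1 was lower too, by -0.55 ± 0.05 (limma adjusted p = 0.0103). That bFGF difference was -0.51 without bFGF replicate 1 and -0.59 without bFGF replicate 2, and passed in neither. The glucose transporter Slc2a4, a target of Klf15, was higher by 1.14 ± 0.05 (adjusted p = 2.78e-04), and Klf15 itself did not pass. S1pr1, a target of Klf2, was lower by -0.90 ± 0.04 (adjusted p = 3.10e-04). Other Klf2 targets, Thbd and Nos3, did not pass. Over the alternatives, 3 to 5 of the targets were higher and 4 to 6 lower under PD0325901. After bFGF, 1 of the 13 was higher and 4 were lower. The part of Klf proteins in the levels of these targets was not tested.

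Finally, the genes whose levels ran most like each member's over the 6 arrays were found by the root mean square distance between profiles, after each was set to its vehicle mean. For Klf4 these were BC034090, Tmem41a and Myh10, at distances of 0.054 to 0.072 log2 units where the median over all genes was 0.823. For Klf9 they were Cryl1, Zfp69 and Glipr2 (0.033 to 0.040, median 0.574). For Klf5 they were Atad2, Ptpn9 and Hdac7 (0.037 to 0.048, median 0.826), and for Klf10 Msantd3, Lyar and Pfkl (0.031 to 0.034, median 0.331). Under PD0325901 the nearest gene to Klf4 was higher by 1.30 ± 0.11 and the nearest to Klf5 lower by -1.37 ± 0.04. Being chosen by distance over the same arrays, these genes had to lie near the member's own difference. Distances over 6 arrays in 3 groups mainly reflect the group means.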

How the data were processed

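Groups and replicate numbers came from the labels. The members and the gene lists were chosen with earlier results of these data known. Linear spot intensity was written by Agilent Feature Extraction 9.5.3.1, per the file headers, or 9.5, as given in the processing notes of the submitters. The processed intensity that was deposited is background-subtracted, per the file headers, and not scaled between arrays. The log2 values of the table the authors deposited are those signals on the log2 scale after scaling by array and centring by probe, and served as an alternative. It runs in the direction of the signal, its column medians ran from -0.107 to 0.019, and the constant shared by its arrays is unknown.

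Levels are log2 processed signals of 43379 non-control spots after subtracting the 75th percentile of the array. Flagged outlier spots were dropped, which took out 83 of 41174 probes. Of the rest, 23341 (56.8%) were named through the RefSeq accession and a RefSeq table of GRCm38.p6. The arrays were designed on an older assembly. A probe counted as detected if both arrays of any group were well above background, and the brightest detected probe stood for its gene. Groups were compared with limma 3.58.1 (lmFit, eBayes, R 4.3.3) in 1 model over 6 arrays with 3 residual degrees of freedom. The number of arrays limits the precision. The scripts were tested on simulated data.

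All 10 members are described, from each list the counts and the 3 genes with the largest difference among those that passed under PD0325901, and for the 2 members that rose most and the 2 that fell most the 3 genes nearest in profile. An item of 1 list is not reported here and was left out of its counts. Genes named beyond that (further list genes, other probes, the Klf2 promoter) were chosen after their values were seen. Alternatives were normexp background (offset 50), on the median signal because no mean signal was in the files, quantile normalization, median centring, stricter and no detection filters, the mean over probes, a test of each probe, the authors' table, fits of the compared groups alone, the replicate number as a block and leaving out each array. The other probe of a gene and the test of the gap between probes were added after the data were seen.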

Additional observations from a re-analysis of the deposited data

How the results depend on the processing

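PD0325901 against vehicle was the steadier comparison: Klf4, Klf5, Klf7 and Klf9 passed with the same sign under every alternative run, and 5 to 7 members passed. Klf6 turned to 0.014 with normexp background, Klf2 to 0.40 with the mean over probes and to 0.995 by its other probe, and Klf15 ranged from -0.011 to 0.056 as arrays were left out. The bFGF counts moved more: from 2834 genes and 4 members, they were 5384 and 7 with median centring, 1139 and 1 with only the groups compared, and 1410 and 1 (Klf9) with the replicate number as a block. Leaving out arrays gave 0 to 1882 genes, the 0 without bFGF replicate 2 (limma, 3722 at unadjusted p under 0.05, and no other tool was run), and 0 to 3 members. In bFGF against vehicle, Klf3 turned to -0.079 and Klf15 to -0.0012 with median centring, Klf3 to -0.057 with the mean over probes and to -0.17 by its other probe, and Klf2 to 0.18 by its other probe. In PD0325901 against bFGF, Klf15 turned to 0.13 with median centring and Klf6 to -0.031 by its other probe, and Klf6 ranged from -0.025 to 0.10 as arrays were left out. The cause of these shifts was not tested.

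Median centring changed the higher and lower calls from 3428 and 4168 to 4684 and 3209 in PD0325901 against vehicle, from 1797 and 1037 to 1442 and 3942 in bFGF against vehicle and from 3622 and 5205 to 6546 and 3446 in PD0325901 against bFGF. Same-numbered arrays shared little of their deviations: the correlations were -0.08, 0.12 and -0.12 for vehicle with bFGF, vehicle with PD0325901 and bFGF with PD0325901. This cannot show whether same-numbered samples were prepared together. With the block, 6955 genes passed in PD0325901 against vehicle. The slide as a block could not be fitted, since each slide held 1 group. Leaving out an array leaves 1 array in its group, which is then assumed to vary like the other groups.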
